A study of Drosophila melanogaster with 9 samples.

Results

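Drosophila genes whose annotated symbol is a CG number, the running number given to a predicted gene, made up 5209 of the 11981 genes measured with 1 symbol on these testis arrays. Of these 5209 genes, 90 were at least 4-fold higher in aly than in control testes and at least 2.83-fold higher in aly than in Nxt1 testes, that is, mean log2 differences of 2 or more and of 1.5 or more. These 90 genes are described here. They were chosen by the measured aly minus control and aly minus Nxt1 differences, so the size of those differences is a description and is not tested. The reference table lists another name for some of them among its synonyms. The same limits were met by 1.73% of the CG-numbered genes and by 1.55% of the 6772 genes with another name.

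Testes were dissected by hand from newly emerged adult males, and total RNA was hybridised to Affymetrix arrays. There were 3 arrays per genotype. The aly males carried aly[5] on a chromosome that also bears the markers red[1] and e[1], and were raised at 27°C. The Nxt1 males carried Nxt1[z2-0488] over Nxt1[DG05102] in a w background, and were raised at 25°C. The control males carried tinRNAi and bamGal4VP16, each over a wild type chromosome, in a w background at 29°C. The bam driver acts in the early germline, so the control is itself a knockdown genotype, although the labels call its testes normal. Genotype and temperature cannot be told apart in this design. The paper compared its Nxt1 arrays with array data that already existed, so the set of arrays may differ with genotype too. The labels give no array date. Whether the 3 arrays of a genotype came from separate cultures is not given in the labels, so a p-value measures the spread between arrays and nothing wider.

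In the Drosophila male germline, primary spermatocytes switch on a large programme of testis-specific transcription before meiosis. The aly product is a subunit of the testis meiotic arrest complex (tMAC), an activator of that programme, and Nxt1 is a partner of the export receptor that carries mRNA out of the nucleus. Spermatogenesis in both mutant genotypes stops at the mature primary spermatocyte, so these testes lack meiotic cells and spermatids. The Nxt1 genotype is a partial loss of function, since Nxt1 is essential for viability and the z2-0488 allele keeps some activity. The best known aly-dependent genes lose expression in the mutant, whereas the 90 genes described here had more signal in it. In a whole testis, more cells of a type and more RNA per cell cannot be told apart, and spermatid stages are present only in the control.

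The signal values are RMA intensities on a linear scale, each gene is represented by its brightest probe set, and differences are between means of log2 values over 3 arrays. The aly probe set read 52.8, 50.8 and 57.5 in aly testes, 365, 385 and 354 in Nxt1 testes, and 106, 93.4 and 98.0 in control testes. It was thus lowest in aly testes, with no overlap between genotypes. The Nxt1 probe set read 726, 1116 and 923 in aly testes, 808, 940.5 and 859 in Nxt1 testes and 344, 350.3 and 351 in control testes. It was not reduced in the Nxt1 mutant, and the files do not say whether these alleles remove the probed sequence. Over all 18769 probe sets the median log2 difference was 0.21 for aly minus control, 0.18 for aly minus Nxt1 and -0.01 for Nxt1 minus control.

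The 90 genes had a median signal of 1192 in aly testes (range 108 to 15734), 278 in Nxt1 testes (27.1 to 5436) and 181 in control testes (19.9 to 2781). For comparison, the median over all CG-numbered genes was 152 in aly testes, 232 in Nxt1 testes and 266 in control testes. The genes therefore ran from very dim to bright in control testes, and the signal of 31 was under the all-probe-set median there. The number below that median was 0 in aly testes and 20 in Nxt1 testes. The median difference was 2.59 for aly minus control (2.01 to 5.58), equal to 6.02-fold, and 2.02 for aly minus Nxt1 (1.51 to 4.03), equal to 4.05-fold. Most of the genes were 4-fold to 8-fold higher in aly than in control testes, with 64 in that range, 22 at 8-fold to 16-fold and 4 at 16-fold or more.

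**Figure D1:**
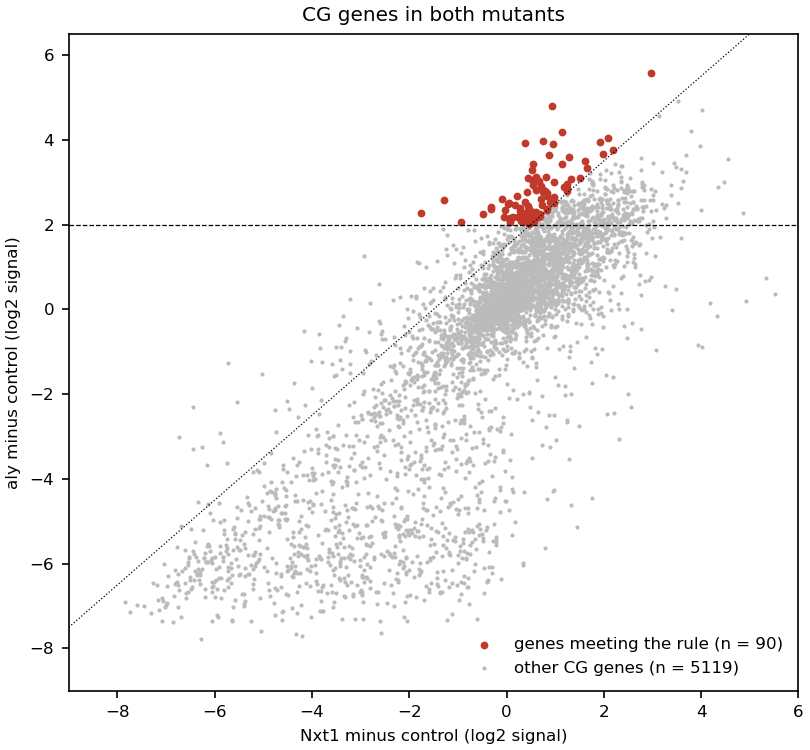
Each point is 1 gene with a CG number as its symbol, with the log2 difference Nxt1 minus control on the horizontal axis and aly minus control on the vertical axis, the dashed and dotted lines marking the 2 limits. The 90 genes lie above both lines, between 2.01 and 5.58 on the vertical axis and between -1.76 and 2.98 on the horizontal axis, and the other 5119 genes are grey.

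Within the genotypes the arrays were close. The median SD of the log2 values over the 90 genes was 0.13 among aly arrays, 0.09 among Nxt1 arrays and 0.13 among control arrays. All 3 aly arrays lay above all 3 control arrays for 90 of 90 genes, against 42.8% of all CG-numbered genes. They lay above all arrays of both other genotypes for 89 of 90, against 26.6% of all CG-numbered genes, the exception being CG11598. In limma's fit to all 18769 probe sets at an adjusted p under 0.05, aly minus control was called higher for 44.0% of probe sets and aly minus Nxt1 for 38.5%, and both calls held for 90 of 90 genes. The limits used these contrasts, so nothing is read from those counts. The balance over all probe sets depends on the scaling. As deposited, 8260 probe sets were higher and 3756 lower in aly than in control testes, whereas centring on ribosomal protein genes gave 4353 higher and 10993 lower, and centring on the single gene CG3927 gave 2681 higher and 13905 lower.

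CG34166 had the second largest aly minus control difference and array values that agreed closely in the mutant. It read 5823, 6737 and 6568 in aly testes, 614, 309 and 439 in Nxt1 testes and 249, 356 and 132 in control testes. That is 4.81 for aly minus control and 3.87 for aly minus Nxt1, with the Nxt1 and control arrays overlapping. Its probe set, like those of CG6503 and CG7943, is of a type that can share probes with other transcripts. CG14182 read 2054, 2462 and 2262 in aly testes, 257, 288 and 279.7 in Nxt1 testes and 105, 161 and 114 in control testes. Here the Nxt1 arrays stood above the control arrays, by 1.14 against 4.18 for aly minus control. CG14829 was dim outside aly testes, with signals of 619.9, 669 and 582 in aly testes, 73.1, 62.3 and 67.1 in Nxt1 testes and 36.2, 42.9 and 40.7 in control testes. Its control values lay under the median of all probe sets, and its difference was 3.97 for aly minus control and 3.21 for aly minus Nxt1.

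CG6503, CG31111 and CG3246 were likewise much closer to control than to aly testes in the Nxt1 mutant. CG6503, which the reference table also lists under a name given to a putative non-coding RNA although it classes it as protein coding, read 2855, 3592 and 3262 in aly testes, 347, 221 and 271 in Nxt1 testes and 225, 263 and 161 in control testes. CG31111 read 1398, 1779 and 1692 in aly testes, 215, 239 and 249.9 in Nxt1 testes and 131, 131 and 124 in control testes. In both genes the lowest aly array exceeded the highest array of the other genotypes by several-fold. CG3246 read 501, 671 and 693 in aly testes, 82.8, 70.6 and 89.6 in Nxt1 testes and 43.2, 41.7 and 39.2 in control testes, and was dim in control testes.

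**Figure D2:**
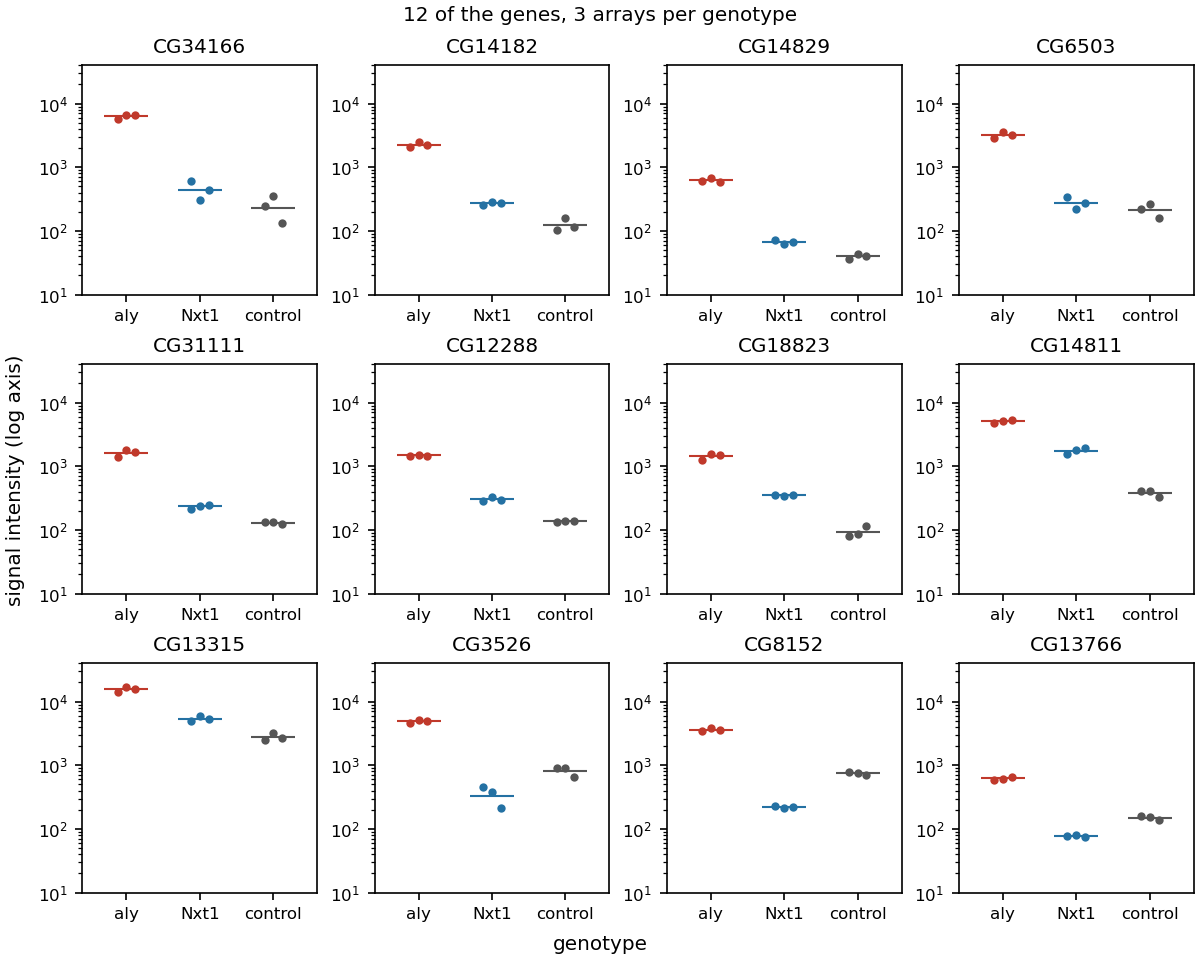
Signal on a log axis for 12 genes, with 1 point per array, genotypes in the order aly, Nxt1 and control, and a line at the mean of the log2 values. CG34166 lies between 5823 and 6737 in aly testes, while CG8152, CG3526 and CG13766 are lowest in Nxt1 testes.

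The brightest of the genes was CG13315, at 14154, 17251 and 15797 in aly testes, 4878, 6026 and 5404 in Nxt1 testes and 2455, 3209 and 2678 in control testes. CG2233 followed with 11242, 13477 and 11591 in aly testes, 2131, 1533 and 1826 in Nxt1 testes and 1931, 2798 and 2187 in control testes. These 2 differ in order, because CG13315 was higher in Nxt1 than in control testes while the Nxt1 and control arrays of CG2233 overlapped. CG10993 read 6793, 7844 and 7035 in aly testes, 2213, 2136 and 2165 in Nxt1 testes and 1317, 1264 and 1338 in control testes. CG15096, a member of a family of organic anion and phosphate transporters, read 5019.5, 6816 and 6165 in aly testes, 1204, 1531 and 1319.6 in Nxt1 testes and 807, 1424 and 966 in control testes. Its Nxt1 and control arrays overlapped. CG14464 and CG42591 averaged 5499 ± 495 and 5388 ± 836 in aly testes, 1789 ± 118 and 1495 ± 185 in Nxt1 testes, and 1156 ± 108 and 839.5 ± 78.9 in control testes (SD, n = 3).

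Of the genes not yet described, those 8-fold to 16-fold higher in aly than in control testes included CG17108, at 2994, 4182 and 4488 in aly testes, 637, 555 and 402 in Nxt1 testes and 295, 376 and 406 in control testes. CG1468, CG15293 and CG16743, named to fill in the range, were dimmer. CG1468 read 358, 675 and 459.7 in aly testes, 85.1, 55.2 and 75.2 in Nxt1 testes and 55.8, 50.3 and 42.8 in control testes, and CG15293 read 807, 943 and 939.9 in aly testes, 248, 125 and 189 in Nxt1 testes and 127, 121 and 70.5 in control testes. CG16743 read 338, 445 and 481 in aly testes, 64.3, 69.6 and 64.7 in Nxt1 testes and 49.7, 53.8 and 43.7 in control testes. In the first 3 of these genes the Nxt1 and control arrays overlapped, and in CG16743 the Nxt1 arrays were all above the control arrays. The dimmest of the 90 in aly testes was CG4596, at 108, 105 and 110.0 in aly testes, 26.9, 28.1 and 26.4 in Nxt1 testes and 21.5, 20.0 and 18.3 in control testes, a difference of 2.44 for aly minus control at signals under the all-probe-set median in both other genotypes.

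The Nxt1 minus control difference was not itself a limit, but it uses the same arrays and equals the gap between the other 2 contrasts. The limits themselves lie 0.5 apart, so the choice of genes partly fixes its size and direction, and the counts and medians that follow are a description from which nothing is read. Its median was 0.59 over the 90 genes (-1.76 to 2.98), or 1.5-fold, against -0.05 over all CG-numbered genes. In limma's fit 63 of the 90 genes were higher in Nxt1 than in control testes, against 34.1% of all probe sets and 34.0% of all CG-numbered genes, and 4 were lower, against 24.2% and 35.9%. The other 23 did not pass. All Nxt1 arrays lay above all control arrays for 67 genes (36.4% of all CG-numbered genes), below them for 4 (40.9%), and the arrays overlapped for 19. By size, 16 genes differed by 1 or more, 38 by 0.5 to 1, 33 by -0.5 to 0.5 and 3 by -0.5 or less. The direction of this difference depends on the scaling. With each array centred on ribosomal protein genes, 20 of the 90 genes were called higher and 22 lower, and 40 of 90 had a positive difference. With each array centred on CG3927, a gene used as a reference in the study's PCR assays, 17 were higher and 33 lower, and 30 of 90 were positive. As deposited, CG3927 itself differed by 1.14 for aly minus control and 0.77 for Nxt1 minus control, and this centring takes those amounts off every gene. The aly minus control and aly minus Nxt1 differences were positive for 90 of 90 genes under both scalings, with a lowest aly minus control difference of 1.38 on ribosomal genes and 0.87 on CG3927. Centring shifts a contrast by the same amount in every gene, and here no shift was large enough to cancel a limit. The 90 of 90 therefore follows from the limits, and nothing is read from it.

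As deposited, the genes that were also 2-fold or more higher in Nxt1 testes numbered 16, so that aly was not the sole mutant in which they were high. CG14811 read 4868, 5198 and 5413 in aly testes, 1559, 1776 and 1909 in Nxt1 testes and 410.2, 408 and 331 in control testes. Its Nxt1 minus control difference was 2.19. CG18823 read 1269, 1533 and 1522 in aly testes, 351, 346 and 353 in Nxt1 testes and 79.6, 86.0 and 117 in control testes, a Nxt1 minus control difference of 1.91. The 3 genotypes formed 3 steps in both genes, with Nxt1 testes between the others and no overlap. CG15084 showed the same order with 3479.9, 3818 and 3881 in aly testes, 1160.2, 1157 and 1148 in Nxt1 testes and 294, 288 and 297 in control testes. CG4716 read 1100.1, 2163 and 1705 in aly testes, 541, 419.7 and 308 in Nxt1 testes and 82.7, 109 and 103 in control testes, and its second probe set gave the same order.

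Among the other genes of this kind, CG32202 differed by 1.66 for Nxt1 minus control and CG8301 by 1.61. CG10621, which belongs to the homocysteine S-methyltransferase family of methionine metabolism, differed by 1.51, and CG13295 and CG5096 by 1.32 and 1.27. CG12288, an added example, carries the name RBM34, an RNA-binding protein, in the reference table. It read 1476, 1486 and 1473 in aly testes, 282, 325 and 298 in Nxt1 testes and 134, 137 and 139 in control testes, and its Nxt1 minus control difference was 1.14 against 3.44 for aly minus control. Of the 16 genes, 16 kept a positive difference when arrays were centred on ribosomal protein genes or on CG3927, but the number of the 90 genes at 1 or more was then 6 and 5. Centring shifted every gene by the same amount, which was less than 1. That the 16 stayed positive thus follows from their choice at 1 or more. The Nxt1 minus control difference of CG14811, CG18823 and CG15084 was 1.54, 1.26 and 1.33 with ribosomal centring and 1.42, 1.14 and 1.20 with CG3927 centring.

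A small set ran in opposite directions in the 2 mutants as deposited, being higher than control in aly testes and lower than control in Nxt1 testes. CG8152 read 3397, 3876 and 3564 in aly testes, 227, 217 and 220.2 in Nxt1 testes and 794, 763 and 697 in control testes. The control values lay between those of the mutants, with an aly minus control difference of 2.27 and a Nxt1 minus control difference of -1.76. CG8152 also had the largest aly minus Nxt1 difference of the 90 genes, at 4.03. CG3526 read 4568, 5137 and 4975 in aly testes, 463, 378 and 211 in Nxt1 testes and 911, 905 and 651 in control testes, a Nxt1 minus control difference of -1.29. Its second, dimmer probe set differed by 1.10 for aly minus control, 1.33 for aly minus Nxt1 and -0.23 for Nxt1 minus control.

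CG13766 is listed as FBXO16, an F-box protein, a class that selects proteins for ubiquitination. It read 592, 620.1 and 652 in aly testes, 76.5, 81.8 and 75.7 in Nxt1 testes and 159, 153 and 137 in control testes, and the Nxt1 minus control difference was -0.94. CG15185, named here to complete the set of 4, had the smallest difference, -0.48. It read 1242, 1235 and 1232 in aly testes, 185, 178 and 199 in Nxt1 testes and 324, 223 and 247 in control testes. In these 4 genes every Nxt1 array was below every control array, and these were the 4 that limma called lower.

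The Nxt1 and control arrays overlapped in 19 genes. CG9962 read 4741, 5737 and 5099 in aly testes, 922, 1005 and 907 in Nxt1 testes and 934, 859.8 and 961 in control testes. CG17658, chosen for this example after its values were seen, read 778, 842 and 808 in aly testes, 149, 142 and 151 in Nxt1 testes and 155, 139 and 137 in control testes. The aly arrays of both stood clear of the other 6, which overlapped.

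**Figure D3:**
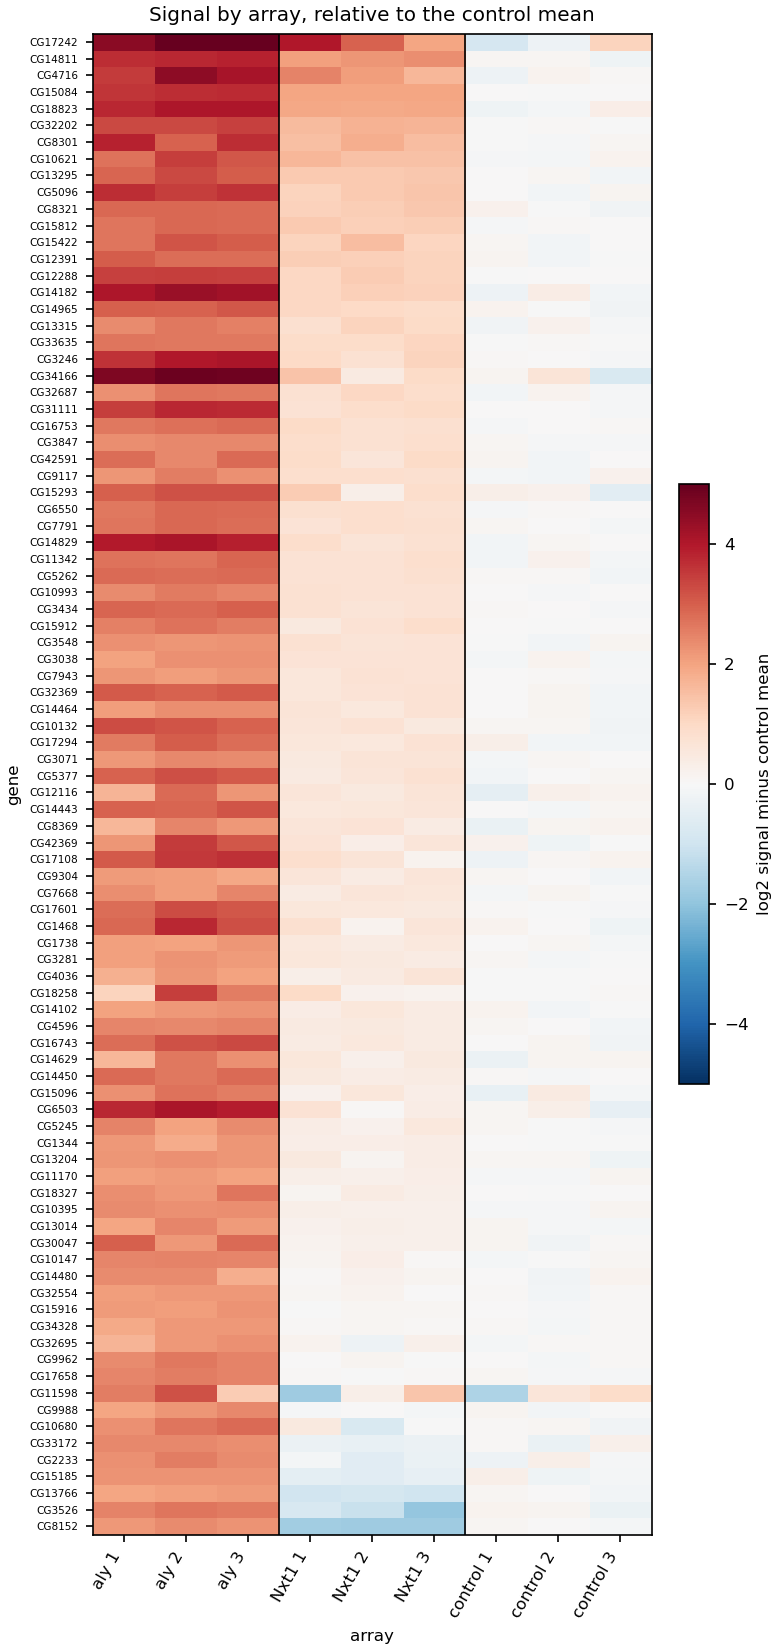
Log2 signal minus the control mean for the 90 genes (rows, ordered by Nxt1 minus control) in each of the 9 arrays, aly, Nxt1 and control from left to right, with colours capped at 5. The aly columns are raised throughout, and the Nxt1 columns run from -1.76 to 2.98 in their mean.

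Several of the genes have a protein family or enzyme name, and these were picked out after their values were seen. CG6550 is listed as CDKAL1-like, in the family of tRNA methylthiotransferases, and read 1553, 1801 and 1774 in aly testes, 429, 439 and 422 in Nxt1 testes and 239, 257 and 248 in control testes. CG7791 is listed as the mitochondrial intermediate peptidase MIP, which trims imported mitochondrial proteins. It read 3078, 3552 and 3367 in aly testes, 782, 877 and 853 in Nxt1 testes and 513, 488 and 455 in control testes. CG3434, in the family of the tRNA queuosine modification enzymes, read 3213, 3072 and 3393 in aly testes, 721, 659 and 702 in Nxt1 testes and 445, 427 and 407 in control testes. All 3 had nearly the same profile, 2.78, 2.78 and 2.92 for aly minus control.

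CG17294 (Phos17294, a phosphatase), CG3038 (GalT3, a glycosyltransferase) and CG18327, a carrier of the mitochondrial inner membrane, differed by 2.80, 2.20 and 2.40 for aly minus control. The zinc finger genes CG12391, CG5245 and CG3281 differed by 2.87, 2.28 and 2.14, and the DEAD-box RNA helicase gene CG14443 by 2.998. The second probe set of CG14443 differed by 1.96 and that of CG32369 by 1.27 for aly minus control. Among the 4 genes with a second probe set, that probe set was higher in aly than in control testes in 4 of 4 and met both limits in 1, which was CG4716.

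The spread among aly arrays was large for a few genes. The SD of log2 among aly arrays was 0.3 or more for 15 of the 90 genes, and aly replicate 1 was lowest in 11 of them and aly replicate 2 highest in 11. Over all 90 genes, aly replicate 1 was lowest in 56 and aly replicate 2 highest in 48. The 5 with an SD of 0.5 or more were CG17242, CG18258, CG11598, CG42369 and CG12116, named here for this spread apart from CG17242. CG17242, listed as the serine protease homologue SPH187, had the largest aly minus control difference, 5.58, and read 1704, 7518 and 3678 in aly testes, 1216, 581 and 298 in Nxt1 testes and 41.8, 62.5 and 164 in control testes. Its arrays differed several-fold within each genotype, without overlap between genotypes. CG18258, of the lipase family, read 63.9, 326 and 171 in aly testes, 56.8, 34.4 and 33.8 in Nxt1 testes and 29.0, 28.8 and 30.7 in control testes, so its lowest aly array was close to its highest Nxt1 array.

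CG11598, also of the lipase family, read 1268, 1963 and 525 in aly testes, 63.0, 267 and 569 in Nxt1 testes and 73.9, 333 and 414 in control testes. Control replicate 1 was far below the other control arrays, and it was also the lowest control array for 18 of 18 genes of the accessory gland, the source of most seminal fluid proteins, though by little for Acp95EF (474, 536 and 755). Their median log2 signal was 12.29, 12.55 and 11.22 in aly testes, 10.99, 12.96 and 13.60 in Nxt1 testes, and 5.89, 10.16 and 10.54 in control testes. The part of accessory gland RNA in the CG11598 values was not tested. CG42369 read 261, 631 and 489 in aly testes, 90.3, 71.6 and 86.4 in Nxt1 testes and 65.7, 48.9 and 55.1 in control testes. CG12116 read 295, 659 and 418 in aly testes, 138, 129.9 and 143 in Nxt1 testes and 67.4, 109.9 and 103 in control testes. In both, the aly arrays stood above all others and the Nxt1 arrays above the control arrays. The pattern of replicate 1 low and replicate 2 high among aly arrays was also seen in 6 of 7 genes of the ejaculatory duct and bulb. Of these, Ebp (25.6, 40.4 and 29.3) and EbpII (20.6, 27.4 and 24.6) were very dim in aly testes, so their order carries little weight. For the list of 7, the median log2 signal was 7.24, 9.63 and 7.86 in aly replicates 1, 2 and 3. The part of ejaculatory duct and bulb RNA in these values was not tested.

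**Figure D4:**
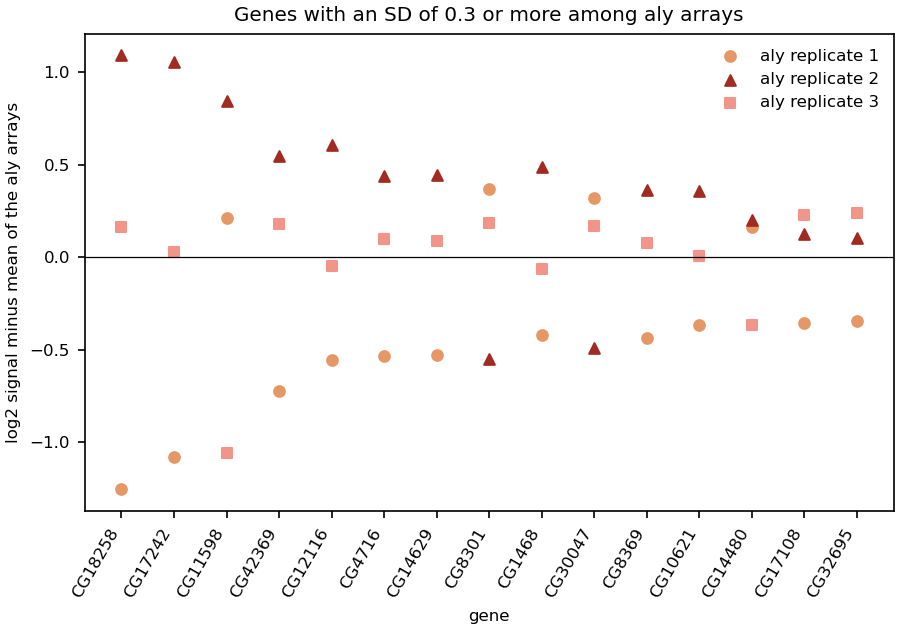
Log2 signal in each of the 3 aly arrays minus their mean, for the 15 genes with an SD of 0.3 or more among aly arrays, ordered by that SD. Replicate 2 is the highest array in 11 genes and replicate 1 the lowest in 11.

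Marker genes of other tissues and of stress responses were measured beside the 90 genes, since hand dissection can carry neighbouring tissue. Of 11 fat body genes 6 were higher and 2 lower in aly than in control testes, with a summed signal of 11393 to 14067 in aly testes, 5608 to 7034 in Nxt1 testes and 7048 to 7478 in control testes. Those that met both limits were Lsp2, which encodes a storage protein, and Fbp1 and Fbp2. Fbp1 read 843, 1377 and 1406 in aly testes, 66.3, 68.7 and 80.0 in Nxt1 testes and 79.4, 73.2 and 42.1 in control testes. Its aly arrays stood above all others and its Nxt1 and control arrays overlapped. The lipoprotein gene apolpp, another fat body marker, went the other way, by -2.07 for aly minus control. Of 18 immune genes 13 were higher and 1 lower, with a summed signal of 5262 to 6978 in aly testes, 2406 to 3358 in Nxt1 testes and 2322 to 2932 in control testes, and the antimicrobial peptide genes Drs and Mtk met both limits. The aly testes thus had more signal for parts of these lists, and their part in the result was not tested.

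Over all probe sets, 44.0% were higher and 20.0% lower in aly than in control testes. Among the other lists, 10 of 14 haemocyte genes were higher and 2 lower, 8 and 3 of 16 muscle genes, 9 and 1 of 20 midgut genes, 4 and 1 of 12 Malpighian tubule genes, 1 and 1 of 9 neuron genes, and 2 and 2 of 14 cuticle genes. The counts were 11 and 3 of 20 detoxification genes, 6 and 0 of 6 heat shock genes, 5 and 0 of 18 accessory gland genes, and 3 and 0 of 7 ejaculatory duct and bulb genes. The accessory gland list nevertheless had the largest median aly minus control difference of the 14 lists, 2.66. Its median log2 signal was 5.89, 10.16 and 10.54 in control replicates 1, 2 and 3, against 12.29, 12.55 and 11.22 in aly testes. The low control replicate 1 thus enlarged that difference and widened the spread on which the calls depend. In the testis itself, 8 of 13 early germline genes were higher and 2 lower, and 1 of 9 hub and cyst cell genes was higher and 4 lower. The early germline gene zpg, which encodes a gap junction protein, was the 1 gene outside the fat body and immune lists to meet both limits. The summed signal of the early germline genes was 9783 to 10271 in aly testes, 9554 to 9926 in Nxt1 testes and 5588 to 6276 in control testes. The sums of the mutants overlapped, but in aly minus Nxt1 5 of the 13 genes were called higher and 5 lower. Similar sums thus hide differences in both directions, and the 90 genes were chosen to differ between the mutants.

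**Figure D5:**
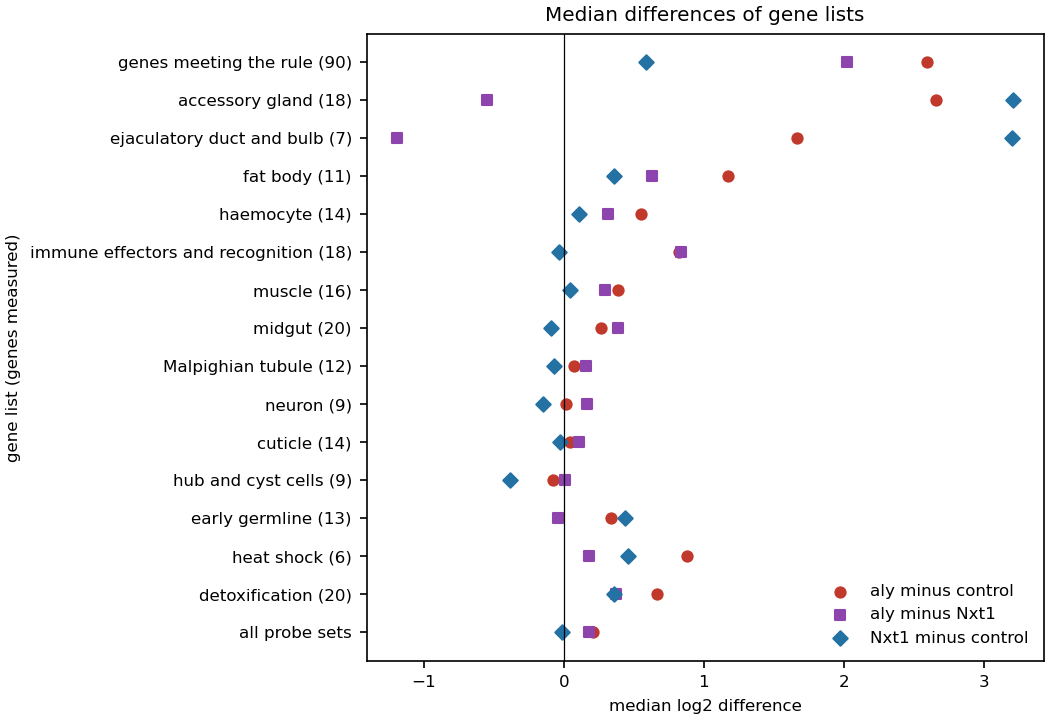
Median log2 difference of each marker list for aly minus control, aly minus Nxt1 and Nxt1 minus control, as 3 points per list. The fat body list lies at 1.17, 0.63 and 0.36 and the immune list at 0.82, 0.84 and -0.03, against 2.59, 2.02 and 0.59 for the 90 genes. The accessory gland list lies at 2.66, -0.55 and 3.21.

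The genes were scattered over the genome. By chromosome arm, 19 of 952 CG-numbered genes of 2L, 19 of 1000 of 2R, 17 of 1038 of 3L, 12 of 1254 of 3R, 0 of 13 of chromosome 4 and 23 of 880 of X were among them. The X held 25.6% of the 90 genes and 17.1% of the 5137 CG-numbered genes placed on an arm, and 3R held 13.3% and 24.4%. No 2 were neighbours in the reference gene order, and the only pair within 4 genes of each other was CG32695 and CG1468 on X, with CG15247 between them at -0.35 for aly minus control. The 151 measured genes next to them had a median aly minus control difference of 0.68, against 0.31 for all genes, and 7.28% of them reached 2, against 9.29% of all genes.

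The aly males carried a marked chromosome, and 3 of the genes lay close to aly on 3L. Within 50 genes on either side of aly, 3 of 46 CG-numbered genes met the limits (6.52%, against 1.73% overall). Within 100 genes it was 3 of 90 such genes (3.33%), and within 200 genes 3 of 157 (1.91%). They were CG16753, 7 genes away, CG15812, 19 genes away, and CG14965, 33 genes away, named for their position. CG16753 read 3715, 4001 and 4154 in aly testes, 1152, 1002 and 1023 in Nxt1 testes and 573, 591 and 608 in control testes. The difference for aly minus control was 2.74 in CG16753, 2.79 in CG15812 and 3.01 in CG14965, against a median of 2.59 over the 90 genes. As deposited, Nxt1 minus control was 0.84, 1.25 and 0.98 in the same order, against a median of 0.59. Sequence differences between the chromosomes were not analysed here.

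The limits cut through a continuous range. The genes just inside the aly minus control limit were CG4036 at 2.01, then CG13766, CG32695, CG9304 and CG11170 up to 2.07. Just outside it lay CG16787 at 1.996, CG5543, CG3309, CG33468 and CG10914 down to 1.96. Just inside the aly minus Nxt1 limit were CG9304 at 1.51, then CG9117, CG3038, CG7943 and CG8369 up to 1.52. Just outside it were CG13928 at 1.49, CG14561, CG17930, CG13285 and CG3251 down to 1.46. Of the 439 CG-numbered genes at or above the aly minus control limit, 349 fell short of the aly minus Nxt1 limit. The number meeting both limits was 44 on ribosomal genes and 14 on CG3927 with each array centred on them, and 49 when every aly array had to clear every array of the other genotypes by the limits.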

How the data were processed

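RNA of adult testes was measured on Affymetrix arrays, 3 each for aly, Nxt1 and control. The authors deposited signal intensities on a linear scale, made with GCOS and RMA, with no versions given in the submitters' processing notes. RMA corrects background, sets all arrays to 1 distribution and combines the probes of each set into 1 value, so differences are relative to all other probe sets, and the number of arrays limits the precision. Log2 was taken here with a pseudocount of 0. Of 18952 probe sets, 183 controls were left out. Platform annotation gave 1 gene symbol to 13646 probe sets, several to 402 and none to 4721, and 13543 gene IDs matched the RefSeq gene table (Release 6 plus ISO1 MT), used for names and gene order only. Where a gene had several probe sets, the one brightest on average (log2, over 9 arrays) was used.

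All 9 arrays were fitted with limma 3.58.1 in R 4.3.3 (lmFit and eBayes, 1 mean per genotype), with Benjamini-Hochberg adjustment over 18769 probe sets and a threshold of 0.05. The fit was tested on simulated data. Tables were handled in pandas 2.3.3 and numpy 2.4.6 under Python 3.11.15, and plots were made in matplotlib 3.10.9. The genes named are the 10 with the largest aly minus control difference, aly minus Nxt1 difference or aly level, the 5 nearest each limit on either side, up to 10 in each direction with a Nxt1 minus control difference of 1 or more, those with a second probe set, and list genes of large difference. Others are marked in the text. The 90 genes and the 14 marker lists were chosen with earlier results of these data known. Alternatives were other scalings, a filter on dim probe sets, other summaries of a gene, limma settings, a replicate block and leaving out each array. Protein and promoter sequences were not analysed here.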

Additional observations from a re-analysis of the deposited data

How the results depend on the processing

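The number of genes meeting both limits depended most on the scaling between arrays. It was 44 with each array centred on the mean of 47 ribosomal protein probe sets (43 shared with the 90), 14 with centring on CG3927 (all 14 shared), and 49 when every aly array had to pass both limits against every other array (49 shared). CG3927 centring and the limits on every array only made both limits stricter, so their full overlap with the 90 was fixed in advance. The number of genes was 87 to 111 with 1 array left out, the highest without aly replicate 1, and lay within 1.5 times of 90 under the dim filter (91), means of linear signals (94), any probe set of a gene (93) and the platform's own symbols (90). Ribosomal centring gave a median aly minus control difference of -0.42 over all probe sets and CG3927 centring one of -0.93, against 0.21 as deposited. The probe sets higher and lower in aly minus control numbered 8260 and 3756 as deposited, 4353 and 10993 with ribosomal centring, and 2681 and 13905 with CG3927 centring, and ranged over 7563 to 8334 and 3502 to 3755 with 1 array left out. For aly minus Nxt1 they were 7225 and 3875 as deposited, 2513 and 6956 with CG3927 centring, and 5975 to 7158 and 3545 to 3867 with 1 array left out, and the higher ones fell to 4189 under the dim filter, which tests fewer probe sets.

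In Nxt1 minus control, the 63 genes called higher and 4 called lower became 20 and 22 with ribosomal centring and 17 and 33 with CG3927 centring, and ranged over 57 to 67 and 4 to 5 with 1 array left out. Centring lowered this difference by the same amount in every gene, and the sign turned for many. A positive difference remained for 40 of 90 genes with ribosomal centring and 30 with CG3927 centring. Examples of a turned sign were CG14464 (-0.017) and CG17108 (-0.10) with ribosomal centring. With CG3927 centring, examples were CG14464 (-0.14), CG17108 (-0.22), CG10993 (-0.042) and CG14829 (-0.019). Which scaling is nearest to RNA per cell was not tested. Deviations from the genotype mean were correlated between samples of different genotypes. The correlations were -0.23 to 0.35 for the same replicate number and -0.35 to 0.28 for different numbers. These overlapping ranges cannot decide whether the numbers pair samples. A replicate block called 64 of the 90 genes higher and 4 lower in Nxt1 minus control, and over all probe sets 8132 higher and 3726 lower in aly minus control and 7018 and 3829 in aly minus Nxt1.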
